A study of Homo sapiens with 10 samples.

Results

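Transcript levels were compared between U2OS-PcTF and U2OS-dTF, a pair of stable transgenic lines made from U-2 OS, a human osteosarcoma cell line. The comparison rests on 3 of the 10 libraries of the series: 2 of U2OS-PcTF (cell line KAH126) and 1 of U2OS-dTF (cell line KAH132). Both lines carry a transgene that was integrated into a chromosome of the same parental Flp-In T-REx cells, is held off by the Tet repressor and is switched on by doxycycline. All 3 cultures received 1 ug/mL doxycycline for 96 h, so exposure to the drug is shared by both groups. U2OS-PcTF makes PcTF, in which the chromodomain of the human protein CBX8 is joined to a red fluorescent protein and the VP64 activation domain. U2OS-dTF makes delta-TF, the same fusion without the chromodomain, and serves as the control. One label of the U2OS-dTF library calls it untreated, with a deactivated protein, while its source name and the protocol give it doxycycline. The methods of the study count 3 replicates for each stable line, whereas the labels give 2 libraries for U2OS-PcTF and 1 for U2OS-dTF, and the labels were followed here. A further library, labelled as U-2 OS transfected with a delta-TF plasmid, was not analysed here. Mock-transfected and PcTF-transfected U-2 OS cells, 1 library each, are given below as reference values. These cells received Lipofectamine, without or with the PcTF plasmid, and are labelled 96 h after transfection with no doxycycline. They were U-2 OS cells and not the Flp-In T-REx parent. A difference between them and a stable line thus joins drug, transfection and parental cells.

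Genes were taken in by 1 rule. The deposited table gives the U2OS-dTF library in 1 column and, in the other, a single mean over the 2 U2OS-PcTF libraries and a library of U-2 OS cells transfected with the PcTF plasmid. The mean of the 2 stable libraries was recovered for each gene by subtracting the transfected library, and genes at 1 FPKM or more in that mean or in U2OS-dTF were kept. FPKM (fragments per kilobase of transcript, scaled to mapped reads) is a level scaled to the length of the gene and to the depth of the library. The rule kept 12920 of 23243 genes, and 12916 remained after 4 genes with a failed estimate were set aside. Differences are log2 ratios of the U2OS-PcTF mean over U2OS-dTF after 0.1 FPKM was added to both, a scale that understates differences of low genes. With 1 control library and 1 mean there is no spread between replicates, so no test was possible and no difference below has a p-value. A gene was counted as higher or lower where the difference reached 2-fold, and that count is a description of these libraries.

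Polycomb group proteins keep developmental genes silent. Polycomb repressive complex 2 (PRC2) trimethylates lysine 27 of histone H3, and the chromodomain of CBX proteins such as CBX8, a subunit of Polycomb repressive complex 1 (PRC1), binds this mark and helps to hold the gene off. VP64 is an activation domain that recruits the transcription machinery, so PcTF was designed to read the silencing mark and to switch the marked gene on, which delta-TF cannot do through a chromodomain.

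CBX8 was the check of the labels. PcTF transcripts hold the part of the CBX8 coding sequence that encodes the chromodomain at the start of the protein, and delta-TF transcripts do not. The first 3 of the 5 coding exons are shown here because this stretch of 179 coding bases is where reads of the transgene can align to CBX8. They lie on the minus strand of chromosome 17 in hg19, at chr17:77770729-77770797, chr17:77770296-77770339 and chr17:77770049-77770114, and the start codon is in capitals.
CBX8 coding exon 1: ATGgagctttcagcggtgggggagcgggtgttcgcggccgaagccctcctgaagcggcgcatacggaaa
CBX8 coding exon 2: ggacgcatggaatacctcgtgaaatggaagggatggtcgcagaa
CBX8 coding exon 3: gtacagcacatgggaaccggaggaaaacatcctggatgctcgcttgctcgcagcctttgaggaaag
CBX8 stood at 1.28 FPKM in U2OS-dTF and at 4.92 FPKM in the U2OS-PcTF mean, a log2 difference of 1.86. In the other U-2 OS libraries, from the table of the transfection, it was at 0.610 FPKM in mock-transfected cells and at 6.43 FPKM in cells transfected with the PcTF plasmid. Both values from cells that hold PcTF were above both values from cells that do not, which is the order the labels call for. For the stable pair alone this is a weak check, since 37% of all kept genes were 2-fold higher in U2OS-PcTF. With the median of genes of like transcript length subtracted, the CBX8 difference was 1.28. Reads of the transgene and of the endogenous CBX8 gene cannot be told apart in these values.

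The libraries differed in depth and in makeup. The smallest steps between low values of single-exon genes correspond to single reads, and they put the depth at about 5.79e+06 reads for U2OS-dTF and at about 1.45e+07 and 1.37e+07 for the U2OS-PcTF pair, so that 1 read on a transcript of 2000 nucleotides was worth 0.0960 FPKM in U2OS-dTF and 0.0383 and 0.0405 FPKM in the pair. U2OS-dTF had 13920 genes above 0, the U2OS-PcTF mean 18391. The mock-transfected and PcTF-transfected libraries had 16089 and 16049 at about 4.87e+06 and 4.27e+06 reads. U2OS-dTF thus had fewer genes above 0 than these libraries of lower estimated depth, and the cause was not tested. U2OS-dTF stood apart from the other U-2 OS values: 107 genes lay over 10-fold above the mock-transfected, PcTF-transfected and U2OS-PcTF values and 69 lay over 10-fold below, against 5 to 28 and 1 or 2 genes when each of those was set against the rest. Its 100 most abundant genes held 34.1% of its FPKM, against 21.2% to 22.3% elsewhere. Of 15 markers of mesenchymal and osteosarcoma cells, 11 were at 1 FPKM or more in U2OS-dTF and 13 in U2OS-PcTF. All 6 neuroblastoma and all 6 erythroid and haematopoietic markers that define the other cell lines of the series were below 1 FPKM in both lines, with 5 of each set at 0 in U2OS-dTF, and of 5 epithelial markers, 1 and 2 reached 1 FPKM. Wider lists of 24, 24 and 20 genes had 3, 6 and 5 members at 1 FPKM or more in either line, among them NEFL (24.9 and 17.6 FPKM in U2OS-dTF and U2OS-PcTF), LCP1 (9.66 and 2.32 FPKM) and KRT18 (58.9 and 68.2 FPKM).

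More genes were higher than lower in U2OS-PcTF. Of the 12916 genes, 4779 (37%) were at least 2-fold higher, 1743 (13.5%) were at least 2-fold lower, and 6394 were neither. The median difference was 0.58 on the log2 scale. Once every gene was set against this median, 2887 genes were 2-fold higher and 2971 lower, and the share of higher genes among all 2-fold differences went from 73.3% to 49.3%. The 2 directions also differ in what the mean can show. No U2OS-PcTF library can exceed 2 times the mean of the pair, so all 1743 lower genes were higher in U2OS-dTF than in both U2OS-PcTF libraries. For a higher gene the mean shows only that at least 1 of the pair lay above U2OS-dTF. Among the higher genes, 619 (13.0%) were listed at 0 in U2OS-dTF, whereas 39 of the lower genes were at 0 in the U2OS-PcTF mean. The control also mattered for direction: when the mock-transfected library, from the other table, took the place of U2OS-dTF, 57 of the 120 genes named here that it could be computed for had a 2-fold difference from U2OS-dTF and the opposite sign against mock-transfected cells. Many of these genes were named for the size of their difference from U2OS-dTF, so this share does not stand for all kept genes. Some of the opposite values were also very small, such as -0.00300 for MMP9 and -0.0671 for SLITRK6. The share of higher genes was 74.2% where the mean of both sides was between 0.5 and 1 FPKM, 41.5% from 1 to 10 FPKM, 27.6% from 10 to 100 FPKM and 18.98% above 100 FPKM. The share of lower genes was 32.3% in that last class and between 11.4% and 14.1% in the others. The filter shapes the low end of this trend. With a mean of both sides below 1 FPKM, a gene could be kept only through 1 side, so a large difference there is partly built in. Of the 4779 higher genes, 1970 were below 1 FPKM in U2OS-dTF and so were kept only through U2OS-PcTF.

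**Figure D1:**
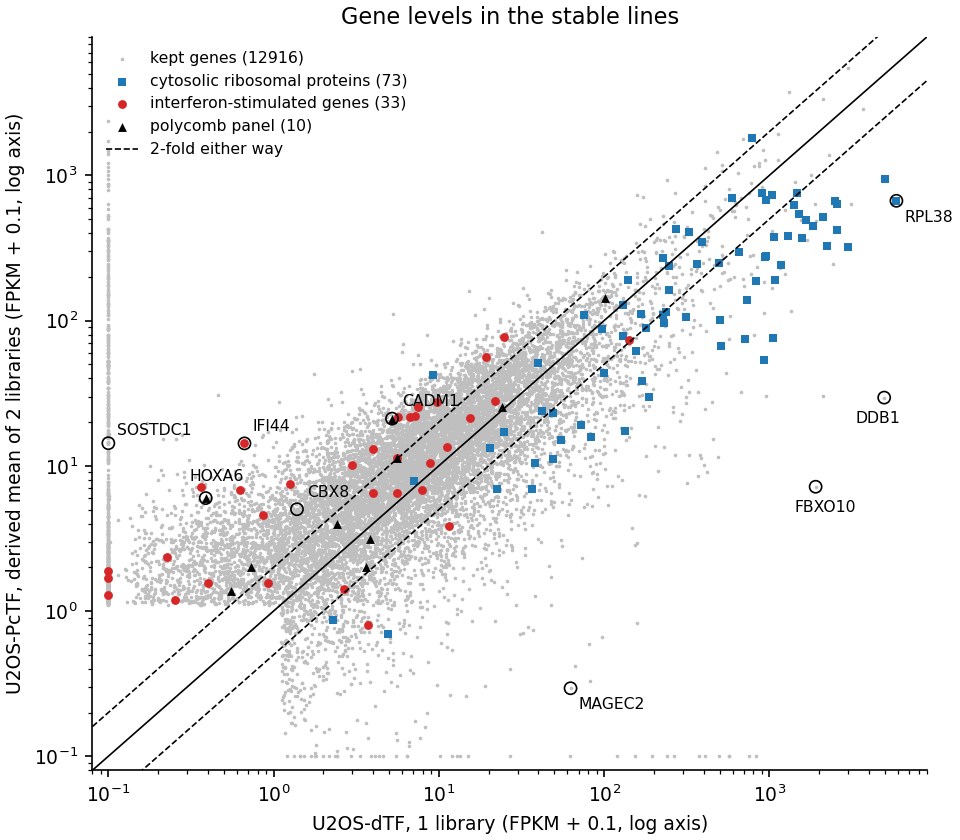
FPKM plus 0.1 of each kept gene in the U2OS-dTF library (x axis, log scale) and in the derived mean of the U2OS-PcTF pair (y axis, log scale), with 3 gene lists in colour, named genes circled, the line of equality and dashed lines at 2-fold. Ribosomal protein genes lie mostly below the lower dashed line (47 of 73) and interferon-stimulated genes mostly above the upper one (21 of 33).

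The differences followed transcript length. Among the 10th of genes with the shortest transcripts (median length 889 nucleotides), the median difference between the stable lines was -0.51, with 18.8% of genes higher and 37.6% lower. In the 10th with the longest transcripts (median 9592 nucleotides) it was 1.03, with 51.2% higher and 3.57% lower, and it climbed from each length class to the next. Against mock-transfected cells, U2OS-dTF ran from 1.34 in the shortest to -0.87 in the longest class, the U2OS-PcTF mean from 0.74 to 0.13 and the PcTF-transfected library from 0.56 to -0.16. The trend was thus steepest where U2OS-dTF was one of the sides. Because gene lists differ in the length of their members, the pathway and gene family lists below are also given as a length-centred difference, from which the median of genes of like transcript length was subtracted. Over the 12032 genes that could be length-centred this left 20.9% of genes 2-fold higher and 19.3% lower. How much of the length trend came from the preparation of the U2OS-dTF library and how much from the cells was not tested.

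**Figure D2:**
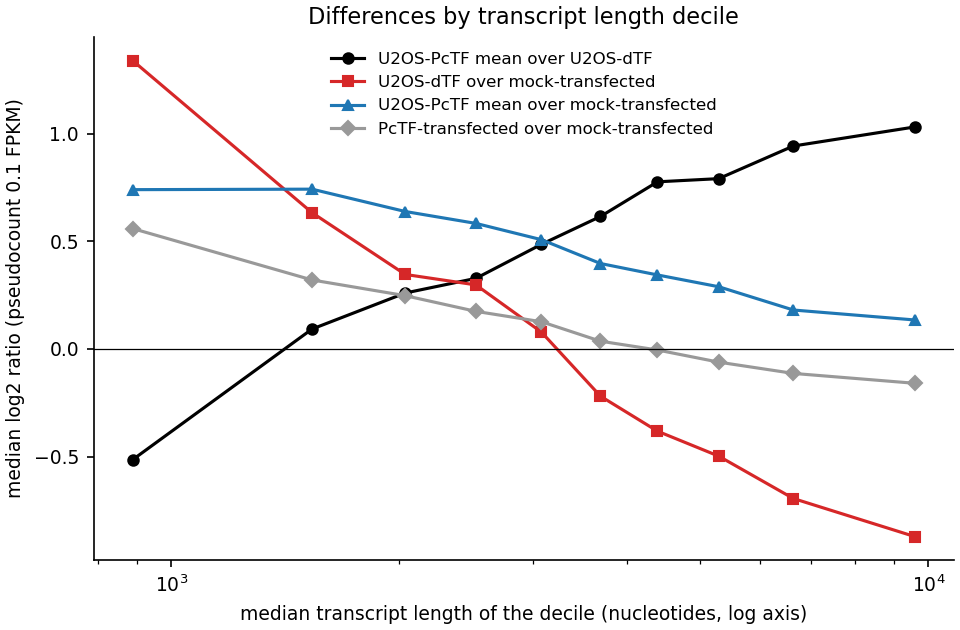
Median log2 ratio (y axis, 0.1 FPKM added) in 10 classes of transcript length (x axis, nucleotides, log scale) for the stable lines against each other and for 3 U-2 OS values against mock-transfected cells. The ratio of U2OS-PcTF to U2OS-dTF goes from -0.51 to 1.03 and that of U2OS-dTF to mock-transfected cells from 1.34 to -0.87, while the other lines are flatter.

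The study followed a panel of 14 genes known to be silenced by Polycomb. Of the 14, 10 reached 1 FPKM in either line: 5 were 2-fold higher in U2OS-PcTF, none was 2-fold lower, and the median difference was 0.86. This 50% stands beside 37% of all genes, and length-centred, 3 were higher and 1 lower with a median of 0.30. The count of 5 was 2 with 1 FPKM added in place of 0.1 and 2 when centred on the median of all genes: CASZ1 (0.65 and 0.73), IRF8 (0.83 and 0.87) and TRIM22 (0.90 and 0.42) then lay under 2-fold. HOXA6, a homeobox transcription factor of anterior to posterior patterning, was at 0.288 FPKM in U2OS-dTF and at 5.89 FPKM in U2OS-PcTF (log2 3.95), beside 2.03 FPKM in mock-transfected and 4.29 FPKM in PcTF-transfected cells. CADM1, a cell adhesion molecule and tumour suppressor, was at 5.11 and 21.0 FPKM (2.02). It was at 28.9 FPKM in mock-transfected cells, so U2OS-dTF was the low value among the 4 and U2OS-PcTF did not exceed mock-transfected cells. IRF8, an interferon regulatory factor of the myeloid lineage, had 0.632 and 1.91 FPKM (1.46), beside 2.25 FPKM in mock-transfected and 4.18 FPKM in PcTF-transfected cells.

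CASZ1, a zinc finger transcription factor, was higher in both values from cells with PcTF than in both from cells without: 0.265 FPKM in mock-transfected cells, 0.452 in U2OS-dTF, 0.722 in PcTF-transfected cells and 1.27 in the U2OS-PcTF mean (log2 1.31). Its length-centred difference was 0.36, under the 2-fold size. TRIM22, an interferon-induced ubiquitin ligase, was at 5.49 and 11.1 FPKM (1.01, or 0.54 length-centred) and far higher, at 76.2 FPKM, in PcTF-transfected cells. The remaining 5 kept genes differed by less than 2-fold: WT1 by 0.72, CLU by 0.48, LAMB3 by 0.07, HK2 by -0.29 and ATF3 by -0.85. Below 1 FPKM on both sides were RUNX3 (0.127 and 0.992 FPKM), HOXB4 (0 and 0.371), CDH1 (0.449 and 0.182) and CDKN2A, which was listed at 0 in all 4 U-2 OS values. RUNX3, a Runt transcription factor, was also at 0.151 and 0.113 FPKM in the mock- and PcTF-transfected libraries, so the U2OS-PcTF mean was its highest value. The 3 control genes of the study did not reach 2-fold, at -0.36 for GAPDH, -0.73 for ACTB and -0.11 for CHMP2A. GAPDH was at 1503, 1319, 3663 and 2846 FPKM and ACTB at 422, 561, 2288 and 1376 FPKM in mock-transfected, PcTF-transfected, U2OS-dTF and U2OS-PcTF cells, so both were higher in the stable lines than in the transfection pair.

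**Figure D3:**
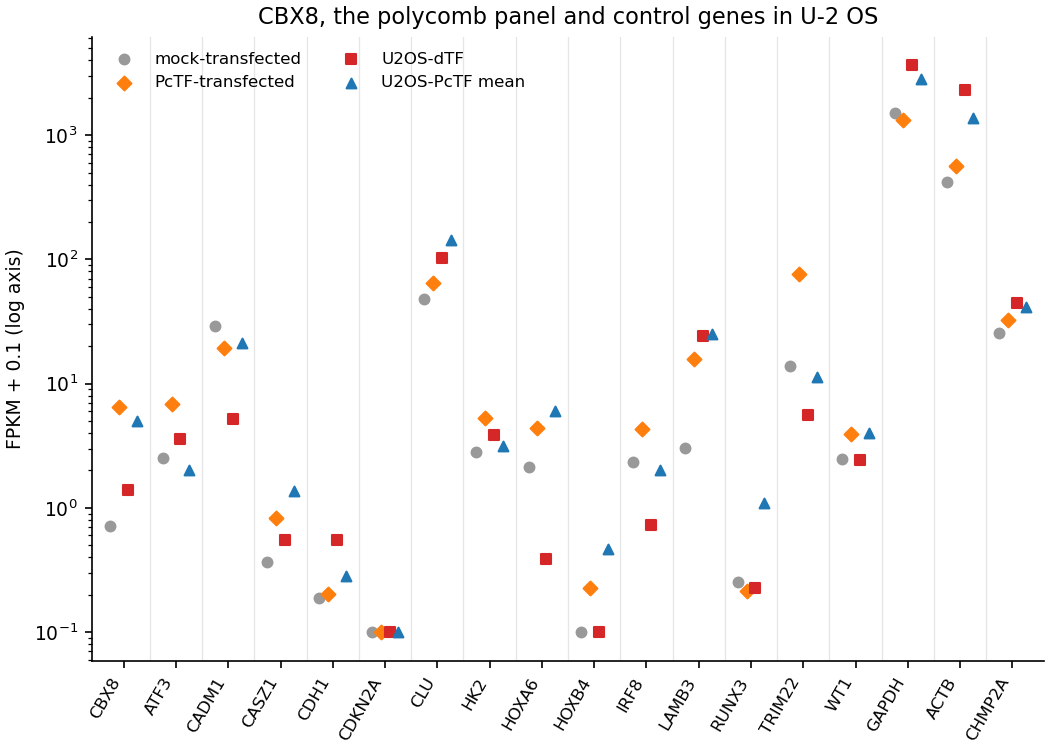
FPKM plus 0.1 (y axis, log scale) of CBX8, the 14 panel genes and the 3 control genes in the 4 U-2 OS values: the mock-transfected, PcTF-transfected and U2OS-dTF libraries and the derived U2OS-PcTF mean. HOXA6, CADM1, IRF8 and TRIM22 have their lowest value in U2OS-dTF, and CASZ1 and RUNX3 their highest in U2OS-PcTF.

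Interferon-stimulated genes were among the groups with the largest difference between the stable lines. These genes encode antiviral proteins and are switched on when interferon signals through a complex that contains STAT2 and IRF9 and binds a promoter element built of repeated GAAA letters. Of 45 genes on the list, 33 were kept: 21 (63.6%, against 37% of all genes) were higher in U2OS-PcTF, 2 were lower, and the median difference was 1.63, or 0.93 length-centred with 14 higher and 1 lower. The group was nevertheless low in both lines. The median member stood at 12.8 FPKM in mock-transfected cells, 95.4 in PcTF-transfected cells, 3.90 in U2OS-dTF and 7.36 in the U2OS-PcTF mean, and 26 of the 33 members were higher in mock-transfected cells than in U2OS-PcTF. The higher values of the stable comparison were thus set against a control library in which the group was lower than in mock-transfected cells by a median of -2.23 on the log2 scale.

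To show the element, promoters of RefSeq (build GRCh38.p14, 250 bases before to 50 after the gene start) were searched on both strands for GAAANNGAAA, a letter pattern within the known interferon response element. It was found in 20 of the 27 kept interferon-stimulated genes that had a promoter in the table, against 3.99% of the 8864 kept genes with one. Of the 20 with a match, 13 were 2-fold higher in U2OS-PcTF, and of the 7 without, 3 were. The promoters of the 3 members with a match and the largest difference are shown, 5′ to 3′ on the strand of the gene, with matches in capitals: IFI44 (chr1:78649539-78649838, plus strand), ISG20 (chr15:88638766-88639065, plus strand) and IFI27 (chr14:94110486-94110785, plus strand). A match is a run of letters and not evidence of binding.
IFI44: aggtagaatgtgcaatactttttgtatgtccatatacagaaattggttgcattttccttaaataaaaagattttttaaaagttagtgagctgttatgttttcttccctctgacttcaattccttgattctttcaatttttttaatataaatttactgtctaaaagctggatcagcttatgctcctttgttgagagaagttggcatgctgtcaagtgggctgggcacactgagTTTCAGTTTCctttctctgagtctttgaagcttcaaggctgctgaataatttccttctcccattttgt
ISG20: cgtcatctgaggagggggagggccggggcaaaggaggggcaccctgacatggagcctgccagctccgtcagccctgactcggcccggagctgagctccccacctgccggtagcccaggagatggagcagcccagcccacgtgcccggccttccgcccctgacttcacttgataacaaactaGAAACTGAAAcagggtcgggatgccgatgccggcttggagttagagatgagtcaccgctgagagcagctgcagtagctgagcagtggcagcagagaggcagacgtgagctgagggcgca
IFI27: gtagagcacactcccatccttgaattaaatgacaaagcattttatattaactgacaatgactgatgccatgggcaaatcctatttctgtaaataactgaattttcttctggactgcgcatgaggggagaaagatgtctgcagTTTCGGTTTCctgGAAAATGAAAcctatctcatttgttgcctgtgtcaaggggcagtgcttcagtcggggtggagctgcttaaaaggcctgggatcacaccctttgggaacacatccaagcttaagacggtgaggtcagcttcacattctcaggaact
The match begins 18 bases before the start of IFI44 and 69 bases before that of ISG20, and the 2 matches of IFI27 begin 108 and 95 bases before its start. IFI44, which restrains viral replication, was at 0.566 FPKM in U2OS-dTF and 14.2 FPKM in U2OS-PcTF (log2 4.42), but at 74.2 FPKM in mock-transfected and 236 FPKM in PcTF-transfected cells. ISG20, an exonuclease for RNA, was listed at 0 in U2OS-dTF and at 1.78 FPKM in U2OS-PcTF (4.23), beside 2.45 and 10.9 FPKM in the transfection pair. IFI27 was listed at 0 and at 1.20 FPKM (3.70), beside 12.0 and 143 FPKM.

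The same order, with U2OS-dTF lowest and PcTF-transfected cells highest, held for the other 3 of the 6 members with the largest difference. IFIT2, which binds foreign RNA, was at 0.262 and 7.03 FPKM in U2OS-dTF and U2OS-PcTF (4.30) and at 83.2 FPKM in PcTF-transfected cells. CMPK2, a mitochondrial nucleotide kinase, was listed at 0 and at 1.58 FPKM (4.07) beside 59.8 FPKM, and DDX60, a helicase of RNA sensing, was at 0.529 and 6.67 FPKM (3.43) beside 104 FPKM. The signal carriers differed less: STAT2 was at 2.86 and 10.0 FPKM (1.77) and IRF9 at 5.50 and 6.38 FPKM (0.21). The 2 lower members, named after their values were seen, were MX1, an antiviral GTPase, at 3.64 and 0.699 FPKM (-2.23), and, with 11.5 FPKM in U2OS-dTF and 3.73 in U2OS-PcTF, IFI6 (-1.59), though with the PcTF-transfected library, at 74.7 FPKM, left in the mean IFI6 was higher (1.25).

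**Figure D4:**
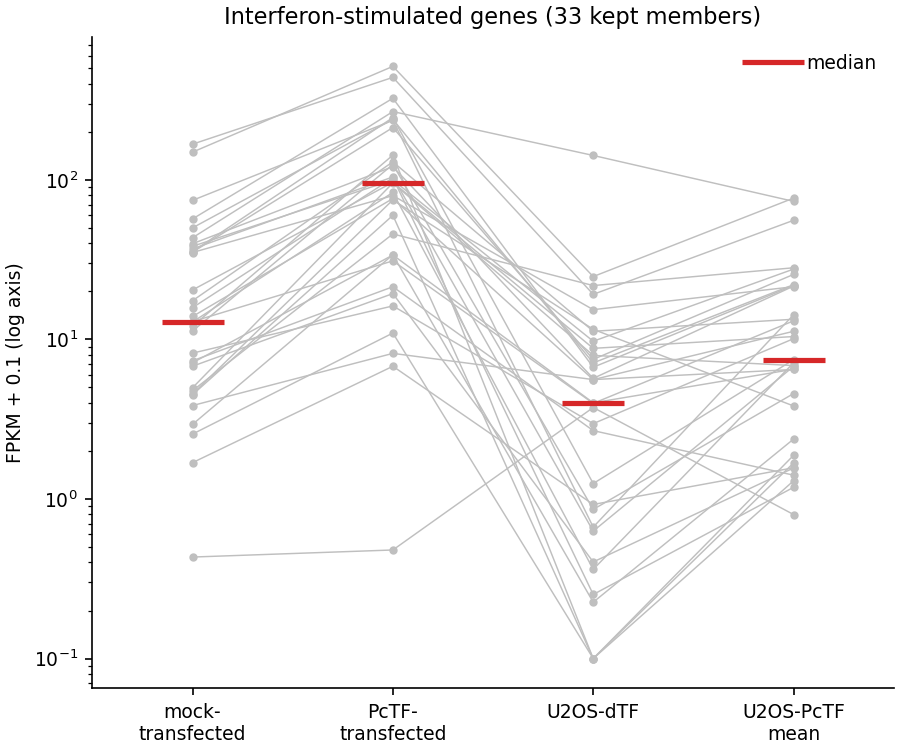
FPKM plus 0.1 (y axis, log scale) of the 33 kept interferon-stimulated genes in the 4 U-2 OS values, with 1 line a gene and red bars at the median. The medians are 12.8, 95.4, 3.90 and 7.36 FPKM from left to right, and U2OS-PcTF lies above U2OS-dTF but below mock-transfected cells for most genes.

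Genes of MHC class I presentation, which interferon also induces, showed no common direction. Of 7 kept, 3 (42.9%) were higher and 1 (14.3%) lower, against 37% and 13.5% of all genes. The median was 0.25, or 0.32 length-centred with 1 higher and 1 lower. ERAP2, a peptidase that trims peptides for loading, was at 0.956 and 4.38 FPKM (2.08), whereas PSMB10, an immunoproteasome subunit, was at 46.7 and 8.18 FPKM (-2.50). Among 15 kept cytokines and NF-kB targets, 5 (33.3%) were higher and 3 (20%) lower, against 37% and 13.5% of all genes. Their median was 0.19, or -0.51 length-centred. CCL2, a monocyte chemokine, was listed at 0 in U2OS-dTF and at 12.6 FPKM in U2OS-PcTF (6.99), beside 64.9 FPKM in PcTF-transfected cells. NFKBIA, the inhibitor that holds NF-kB in the cytoplasm, went the other way at 673 and 32.2 FPKM (-4.38), and U2OS-dTF was its highest value by far, with 12.0 and 33.0 FPKM in the transfection pair. RELB, an NF-kB subunit, was at 7.83 and 0.806 FPKM (-3.13).

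As measured, genes of attachment to the matrix and to neighbouring cells were mostly higher in U2OS-PcTF than in U2OS-dTF. Integrins are receptors for the matrix and laminins are chains of the basement membrane. Of their 25 kept members, 18 (72.0%, against 37% of all genes) were higher and 1 was lower, with a median of 1.70. These genes have long transcripts (median 5941 nucleotides), and length-centred the median was 0.71 with 11 higher and 2 lower. Of all length-centred genes, 20.9% were higher and 19.3% lower. Against mock-transfected cells, the median log2 difference of this list was -1.08 in U2OS-dTF and 0.67 in U2OS-PcTF. ITGB8, an integrin chain that frees latent TGF-beta, was at 0.986 and 17.6 FPKM (4.03), near the 19.3 FPKM of mock-transfected cells. ITGB3, a chain of the vitronectin receptor, was at 0.772 and 8.49 FPKM (3.30), and here U2OS-PcTF was also above the 1.44 FPKM of mock-transfected and the 3.93 FPKM of PcTF-transfected cells. LAMA3, a laminin chain of epithelial basement membranes, was listed at 0 in U2OS-dTF and was at 3.13 FPKM in U2OS-PcTF (5.01), above 0.117 and 0.623 FPKM in the transfection pair. ITGA2, a collagen receptor chain, was at 7.36 and 57.7 FPKM (2.95). The lower member, named after its values were seen, was ITGB2, the chain of leukocyte integrins, at 5.41 and 1.64 FPKM (-1.67).

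Of 25 kept cadherins and other adhesion genes, 17 (68.0%, against 37%) were higher and 1 was lower, with a median of 1.48. Length-centred, the median was 0.54 with 7 of 25 higher and 2 lower, against 20.9% and 19.3% of all length-centred genes. Against mock-transfected cells, the median log2 difference of this list was -1.73 in U2OS-dTF and 0.30 in U2OS-PcTF. PCDH17, a protocadherin, was at 0.0884 and 2.59 FPKM (3.84), above the 0.524 and 0.747 FPKM of the transfection pair. CDH18 was at 0.559 and 5.15 FPKM (2.99) and CDH11, the cadherin of osteoblasts, at 0.250 and 2.33 FPKM (2.79), while mock-transfected cells had 3.10 and 2.97 FPKM. CD9, a tetraspanin and the lower member, also named after its values were seen, was at 769 and 209 FPKM (-1.88).

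Collagens did not share one direction once length was taken into account. Of 19 kept, 6 (31.6%) were higher and none was lower, against 37% and 13.5% of all genes. The median was 0.57, near the 0.58 of all genes, but length-centred it was -0.43 with 3 higher and 4 lower. COL6A3, a chain of the microfibrils around cells, was at 1.27 and 21.5 FPKM (3.98). COL3A1, a fibrillar collagen, was at 0.196 and 3.17 FPKM (3.47), both far below the 451 FPKM of mock-transfected cells. COL1A1 and COL6A1 were at 39.0 and 88.8 FPKM (1.19) and at 10.6 and 35.1 FPKM (1.72). COL1A2 was listed at 0 in all 4 U-2 OS values. Other matrix and cross-linking genes had 14 of 32 (43.75%) higher, 4 (12.5%) lower and a median of 0.69, or 0.18 length-centred with 9 higher and 7 lower. Among them FN1, fibronectin, was at 15.1 and 159 FPKM (3.39), also above 42.9 and 55.4 FPKM in the transfection pair, and FBN1, the fibrillin of elastic fibres, was at 0.0750 and 3.10 FPKM (4.19). MFAP5, a microfibril protein, was at 112 and 7.14 FPKM (-3.95) beside 0.229 and 0.0871 FPKM in the transfection pair. Matrix proteases and their inhibitors had 6 of 17 (35.3%) higher and 3 (17.6%) lower with a median of 0.04, or -0.55 length-centred. MMP9, a gelatinase, was at 0.243 and 2.49 FPKM (2.92), and TIMP2, a protease inhibitor, at 232 and 92.2 FPKM (-1.33).

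U-2 OS cells derive from bone, and 13 osteoblast lineage genes were kept, of which 8 (61.5%, against 37% of all genes) were higher and none lower, with a median of 1.19, or 0.35 length-centred with 6 higher. RUNX2, the master transcription factor of osteoblasts, was at 2.66 FPKM in U2OS-dTF and 17.3 FPKM in U2OS-PcTF (2.66 on the log2 scale), against 7.30 FPKM in mock-transfected and 7.86 FPKM in PcTF-transfected cells, so it was highest in U2OS-PcTF. TNFRSF11B, osteoprotegerin, which restrains bone resorption, was at 5.15 and 111 FPKM (4.40), beside 35.4 and 145 FPKM. SPP1, osteopontin, was listed at 0 and at 1.95 FPKM (4.35), and ALPL, an alkaline phosphatase of mineralisation, was at 0.163 and 1.21 FPKM (2.31). SOSTDC1, an antagonist of BMP and WNT ligands, was listed at 0 in U2OS-dTF and was at 14.2 FPKM in U2OS-PcTF (7.16), but at 145 FPKM in mock-transfected and 7.00 FPKM in PcTF-transfected cells.

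WNT ligands act through Frizzled and LRP receptors on beta-catenin. Of 28 kept WNT pathway genes, 16 (57.1%) were higher and 4 (14.3%) lower, against 37% and 13.5% of all genes, with a median of 1.34, or 0.48 length-centred with 8 higher and 5 lower. RNF43, a ubiquitin ligase that removes Frizzled receptors, was at 0.0792 FPKM in U2OS-dTF and 9.92 FPKM in U2OS-PcTF (5.80), above the 2.16 and 1.39 FPKM of the transfection pair. LGR4, a receptor for R-spondins, which counteract that ligase, was at 0.957 and 9.16 FPKM (3.13). Of the ligands, WNT2B was at 0.380 and 2.89 FPKM (2.64) and WNT7A, at 6.05 and 0.761 FPKM (-2.84), was lower. NKD2, an inhibitor inside the cell, was lower too at 1.30 and 0.179 FPKM (-2.33).

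Of 43 kept genes of the TGF-beta and BMP pathway, 19 (44.2%, near the 37% of all genes) were higher and 2 lower, with a median of 0.85, or 0.24 length-centred with 5 higher and 4 lower. ACVR1 and BMPR1A, type I receptors of BMP ligands, were at 2.07 and 15.96 FPKM (2.89) and at 4.14 and 19.1 FPKM (2.18), beside 10.8 and 18.2 FPKM in mock-transfected cells. BAMBI, a decoy receptor, was at 0.454 and 2.57 FPKM (2.27). GREM1, a secreted BMP antagonist, was lower at 1.53 and 0.135 FPKM (-2.79). Receptor tyrosine kinases and their ligands had 18 of 42 (42.9%) higher and 6 (14.3%) lower, against 37% and 13.5% of all genes. Their median was 0.67, which became -0.14 when length-centred with 12 higher and 10 lower. EPHA4, an ephrin receptor, was listed at 0 and at 3.53 FPKM (5.18), EREG, a ligand of the EGF receptor, was at 0.0390 and 3.77 FPKM (4.80), and TGFA, another, was at 0.672 and 9.68 FPKM (3.66).

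The genes that encode the Polycomb machinery itself showed no common direction. Of 25 kept PRC1 genes, 10 (40.0%) were higher and 3 (12.0%) lower, near the 37% and 13.5% of all genes, with a median of 0.76 that became -0.17 when length-centred. Beside CBX8, these were genes of partners in the complex: PCGF1, of a variant complex, was at 3.68 and 17.2 FPKM (2.19), and SCMH1 was at 4.44 and 20.6 FPKM (2.19). L3MBTL1, a chromatin compactor, was at 0.346 and 2.71 FPKM (2.65). PCGF6 was lower at 40.6 and 7.37 FPKM (-2.44), with U2OS-dTF far above the 5.34 FPKM of mock-transfected cells. Of 10 kept PRC2 genes, 3 (30%) were higher and 1 (10%) lower, against 37% and 13.5% of all genes. Their median was 0.30, or -0.24 length-centred. EED, the core subunit that reads the trimethyl mark, was at 75.9 and 13.1 FPKM (-2.52), and EZH2, the methyltransferase, at 22.5 and 11.4 FPKM (-0.97). AEBP2 and JARID2, accessory subunits that help to target the complex, were at 7.71 and 28.9 FPKM (1.89) and at 4.50 and 11.4 FPKM (1.33).

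Among 14 kept genes of histone H3 lysine 27 demethylases and the opposing trithorax group, 5 (35.7%) were higher and 2 (14.3%) lower. These shares were near the 37% and 13.5% of all genes. The median was 0.45, or 0.09 length-centred with 2 higher and 3 lower. KDM6A, which removes the Polycomb mark, was at 0.713 and 8.52 FPKM (3.41), near the 10.0 FPKM of mock-transfected cells, and WDR5, a subunit of the trithorax methyltransferases, was at 59.0 and 11.7 FPKM (-2.32). VP64 acts through Mediator and general transcription factors, and of 49 kept genes of these, 15 (30.6%) were higher and 4 (8.16%) lower. Their median was 0.39, or 0.00 length-centred with 7 higher and 8 lower. MED8 was at 311 and 29.9 FPKM (-3.38), against 26.8 FPKM in mock-transfected cells, and GTF2A1 was at 9.57 and 49.0 FPKM (2.35). In PCGF6, EED, WDR5 and MED8 alike, the value that stood away from the other 3 was that of U2OS-dTF.

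HOX genes, the classical Polycomb targets, lay on both sides. Of 31 kept, 7 (22.6%) were higher and 5 (16.1%) lower, against 37% and 13.5% of all genes. The median was 0.06, below the 0.58 of all genes, or -0.14 length-centred. Of the 7 higher genes 4 were of the HOXA cluster, while the 5 lower ones, HOXA3, HOXB8, HOXC9, HOXC11 and HOXD11, came from all 4 clusters. With 1 FPKM added in place of 0.1, HOXA3 (-0.49), HOXB8 (-0.55), HOXC9 (-0.95) and the higher HOXD9 (0.91) lay under 2-fold. HOXA5 was at 0.475 and 2.28 FPKM (2.05). HOXA13 was at 0.149 and 2.55 FPKM (3.41), but at 18.7 FPKM in mock-transfected cells. HOXD9 was at 0.103 and 1.07 FPKM (2.53). HOXC11, of the HOXC cluster, was lower at 9.69 and 2.23 FPKM (-2.07), beside 1.67 and 1.27 FPKM in the transfection pair.

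Of 110 other developmental transcription factors, 46 were kept: 15 (32.6%) were higher and 8 (17.4%) lower, against 37% and 13.5% of all genes. Their median was 0.39, or -0.22 length-centred. SOX2, a factor of pluripotent and neural cells, was at 0.149 FPKM in U2OS-dTF and 5.16 FPKM in U2OS-PcTF (4.40), above the 0.266 and 0.606 FPKM of the transfection pair. SOX5, a factor of cartilage, was at 0.480 and 9.11 FPKM (3.99), PRRX1, of limb mesenchyme, at 0.273 and 5.36 FPKM (3.87), and TBX15 at 0.262 and 5.09 FPKM (3.84). These 3 were at 12.2, 11.1 and 4.66 FPKM in mock-transfected cells. LHX1 and IRX4 were listed at 0 in U2OS-dTF and were at 1.48 and 1.34 FPKM in U2OS-PcTF. Imprinted genes, which are expressed from 1 parental copy, had 7 of 15 (46.7%) higher and none lower, against 37% and 13.5% of all genes. Their median was 0.89, or 0.65 length-centred with 4 higher and 1 lower. GNAS, which encodes a G protein subunit, was at 484 and 1458 FPKM (1.59) and SNRPN, a splicing protein, at 4.86 and 13.8 FPKM (1.49), against 896 and 12.4 FPKM in mock-transfected cells.

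Ribosomal protein genes and nuclear genes of the respiratory chain, which have short transcripts, were mostly lower in U2OS-PcTF. Of 73 kept cytosolic ribosomal protein genes, 47 (64.4%, against 13.5% of all genes) were lower and 2 higher, with a median of -1.48, and all 47 were higher in U2OS-dTF than in both U2OS-PcTF libraries. The median member stood at 109 FPKM in mock-transfected cells, 167 in PcTF-transfected cells, 139 in U2OS-PcTF and 327 in U2OS-dTF. Their transcripts are short (median 887 nucleotides), and length-centred the median was -0.93 with 33 lower and 6 higher. RPL38 was at 5869 and 668 FPKM (-3.14), beside 479 and 1120 FPKM in the transfection pair, RPS14 at 2974 and 321 FPKM (-3.21) and FAU at 1050 and 75.7 FPKM (-3.79). Many ribosomal protein genes have near-identical processed copies in the genome, so reads can be split between copies and these values are uncertain. Of 51 kept nuclear genes of the respiratory chain, 27 (52.9%, against 13.5%) were lower and 1 higher, with a median of -1.02, or -0.62 length-centred with 15 lower and 3 higher. UQCRQ, of complex III, was at 269 and 11.8 FPKM (-4.50), NDUFB7, of complex I, at 229 and 13.4 FPKM (-4.08) and COX7C, of complex IV, at 1350 and 117 FPKM (-3.53). Mock-transfected cells had 8.30, 5.98 and 75.6 FPKM of these 3 genes, so U2OS-PcTF was above them too, for NDUFB7 by 1.15 on the log2 scale, and U2OS-dTF was far above both.

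**Figure D5:**
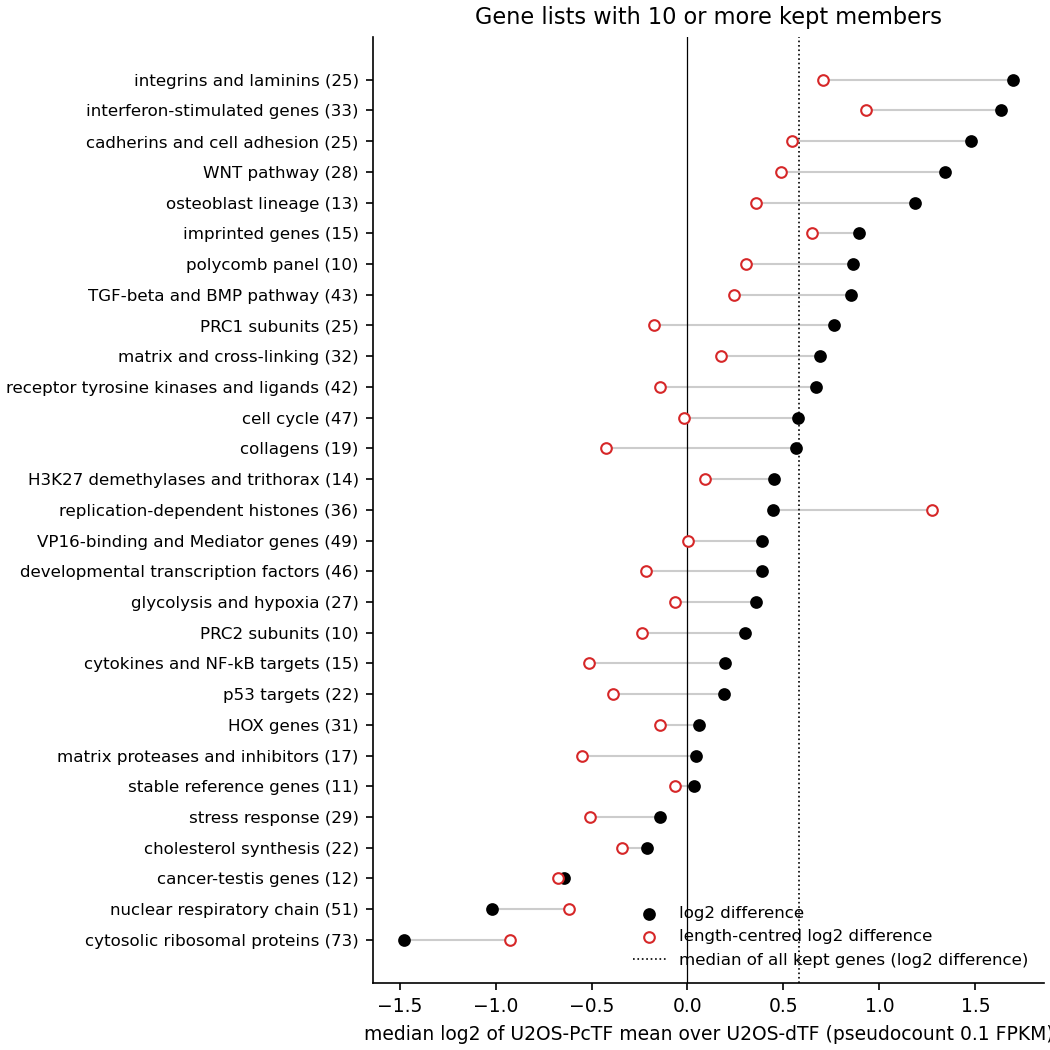
Median log2 of the U2OS-PcTF mean over U2OS-dTF (x axis, 0.1 FPKM added) for each gene list with 10 or more kept members (number in brackets), as measured (black) and after the median of genes of like transcript length was subtracted (red circles), with a dotted line at the median of all kept genes, 0.58. Integrins and laminins (1.70) and interferon-stimulated genes (1.63) lie at one end and ribosomal protein genes (-1.48) at the other, and length-centring brings both ends nearer to 0.

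The lists of stress, p53, cell cycle and metabolism genes had medians between -0.21 and 0.57, below the 0.58 of all genes. Of 29 kept stress response genes, 2 (6.90%) were higher and 5 (17.2%) lower, against 37% and 13.5% of all genes. Their median was -0.14, or -0.51 length-centred with none higher and 9 lower. SESN2, a brake on growth signalling, was at 25.5 and 4.46 FPKM (-2.49) and GDF15, a secreted stress signal, at 9.35 and 1.87 FPKM (-2.26). Of 22 kept p53 targets, 4 (18.2%) were higher and 4 (18.2%) lower with a median of 0.19, or -0.39 length-centred. CDKN1A, the inhibitor of cyclin-dependent kinases, was at 123 and 40.6 FPKM (-1.59) and BAX, which opens mitochondria in apoptosis, at 10.8 and 1.95 FPKM (-2.40). Of 47 kept cell cycle genes, 13 (27.7%) were higher and 3 (6.38%) lower. Their median was 0.57, close to that of all genes, and became -0.02 when length-centred. CDC25C, the phosphatase of mitotic entry, was at 1.84 and 13.1 FPKM (2.77), and BIRC5, survivin, at 88.7 and 23.5 FPKM (-1.91). Glycolysis and hypoxia genes had 9 of 27 (33.3%) higher and 1 (3.70%) lower with a median of 0.36, or -0.07 length-centred. P4HA1, a collagen prolyl hydroxylase that hypoxia induces, was at 7.64 and 38.6 FPKM (2.32), against 143 FPKM in mock-transfected cells. Cholesterol synthesis genes had 5 of 22 (22.7%) higher and 4 (18.2%) lower with a median of -0.21, or -0.34 length-centred with 1 higher and 8 lower. INSIG1, which restrains the pathway, was at 27.7 and 2.51 FPKM (-3.41).

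Replication-dependent histone genes had 14 of 36 (38.9%) higher and 7 (19.4%) lower, against 37% and 13.5% of all genes. The median was 0.45, or 1.28 length-centred, and their median transcript of 493 nucleotides was the shortest of all lists. HIST1H3E and HIST1H2BN were listed at 0 in U2OS-dTF and were at 4.90 and 6.69 FPKM in U2OS-PcTF, near the 7.93 and 6.68 FPKM of mock-transfected cells. These genes have near-identical copies, so their values are uncertain. Of 12 kept cancer-testis genes, none was higher and 4 (33.3%) were lower, against 37% and 13.5% of all genes. Their median was -0.65 as measured and -0.67 length-centred. MAGEC2 was at 62.5 FPKM in U2OS-dTF and 0.194 FPKM in U2OS-PcTF (-7.73), beside 2.86 and 2.87 FPKM in the transfection pair, so it differed in both stable lines from the transfected cells. PAGE2, which has near-identical family members, was listed at 0 in both transfection libraries and was at 99.3 and 33.6 FPKM in the stable lines (-1.56). Of 11 kept reference genes, 2 (18.2%) were higher and 1 (9.09%) lower, with a median of 0.03, or -0.07 length-centred. Few members of the lists for other cell types were kept, so their shares say little beside the 37% and 13.5% of all genes. There were 5 epithelial genes with 1 higher and 1 lower, 3 neuroblastoma genes with none of either, and 6 erythroid and haematopoietic genes with 1 higher and 4 lower. Among the last 4 was the embryonic globin HBE1 at 7.61 and 2.21 FPKM (-1.74), or 0.53 with the PcTF-transfected library, at 28.6 FPKM, left in the mean.

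The largest differences among all genes at 5 FPKM or more on the higher side were mostly cases in which U2OS-dTF alone stood apart. Of the 15 genes with the largest positive difference, 12 were listed at 0 in U2OS-dTF. MUC15, a membrane mucin, was at 0.113 FPKM in U2OS-dTF and 15.3 FPKM in U2OS-PcTF (6.17), beside 67.8 and 50.5 FPKM in the transfection pair, and PLXDC2, a plexin domain receptor, was at 0.0721 and 19.5 FPKM (6.83), beside 34.6 and 3.71 FPKM. HAS3, a hyaluronan synthase, SLITRK6, a neuronal membrane protein, ZNF844, a zinc finger gene, and LEMD1 were listed at 0 in U2OS-dTF and were at 7.12, 6.87, 6.55 and 7.67 FPKM in U2OS-PcTF, with mock-transfected values of 7.83, 7.20, 7.78 and 6.66 FPKM. USE1 and FNTB, which serve vesicle fusion and protein prenylation in most cells, were listed at 0 too, beside 8.56 and 14.5 FPKM in U2OS-PcTF. The locus given for FNTB is wide (chr14:65381079-65569227) and may take in neighbouring genes, so its values are uncertain. LOC153469 (8.12 FPKM) and PRSS1 (7.22 FPKM), a trypsinogen with near-identical copies, were at 0.175 and 0 FPKM in mock-transfected cells and so were highest in U2OS-PcTF. HNRNPUL2-BSCL2 and TMEM189-UBE2V1 are read-through genes that share exons with their neighbours, and their values are uncertain. CCL2, SOSTDC1 and HIST1H2BN complete the 15.

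At the other end, FBXO10, a ubiquitin ligase subunit, was at 1904 FPKM in U2OS-dTF and 7.07 FPKM in U2OS-PcTF (-8.05), with 2.39 and 2.56 FPKM in the transfection pair. DDB1, the adaptor of a ubiquitin ligase that senses DNA damage, was at 4950 and 29.4 FPKM (-7.39), with 20.7 and 18.4 FPKM. ACAP3 (82.3 and 0.228 FPKM), B9D2 (158 and 0.727 FPKM), PRRT3 (97.6 and 0.560 FPKM) and FAM173A (67.0 and 0.321 FPKM) repeated this shape, each below 1 FPKM in both transfection libraries. PAGE4, CCL26, ZCCHC16, C16orf93, KRBOX1, HIST1H2AA and APOBEC3A were between 6.29 and 81.1 FPKM in U2OS-dTF and at most 1.42 FPKM in every other U-2 OS value. RPL13AP5, a processed copy of a ribosomal protein gene, was at 240 FPKM in U2OS-dTF and listed at 0 in the other 3, and MAGEC2 was described above. U2OS-dTF was thus the highest of the 4 values for the whole set. For MAGEC2, PAGE4, APOBEC3A and, by a small margin, B9D2 the U2OS-PcTF mean was also the lowest without a tie. Whether these values belong to the line or to its single library was not tested, since the line has no second library in the table.

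Chromosome medians were not level either. Over genes that were length-centred, the median difference ran from 0.08 on chromosome 22, 0.13 on chromosome 16 and 0.21 on chromosome 19 to 0.88 on chromosome 13 and 0.90 on chromosome 4. Chromosomes 19 and 4 also differ in median transcript length, with 2598 and 3970 nucleotides. Length-centred, the range was -0.37 on chromosome 22 to 0.27 on chromosome 2, with chromosome 16 at -0.31 and chromosome 4 at 0.24. The gene copy number of the lines was not measured in these data.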

How the data were processed

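Libraries were made from 50 ng of total RNA by single primer isothermal amplification and sheared to about 300 bp. According to the methods of the study, 50-bp single-end reads were trimmed, aligned to hg19 with TopHat2 (version 2.1.0 in the submitters' processing notes) and Bowtie2, and quantified with Cuffdiff. The deposited FPKM values are those the authors obtained from Cuffdiff, scaled to depth and gene length, with 1 row per gene. The tables also hold the authors' own fold changes, p-values and q-values, which were not used.

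To separate the U2OS-PcTF pair from the transfected library, the deposited mean was multiplied by 3, the transfected value was taken off and the rest was divided by 2, with values below 0 set to 0 (6 kept genes, lowest -0.0015 FPKM). As a check, the deposited mean of 325 genes was the transfected value over 3 to within 0.01%, as for genes absent from the pair, and only 9 of the 16045 genes tested fell short of that value by more than 1%. A normalization across the 2 tables that differed slightly would shift the derived mean. Genes at 1 FPKM on either side were kept, 0.1 FPKM was added and log2 ratios were taken, with a size of 2-fold counted. Transcript lengths, found for 93.3% of kept genes, came from GENCODE release 44 lifted to GRCh37, and length-centring used 20 classes. Depth was estimated from single-exon genes. In the mock-transfected, PcTF-transfected and U2OS-dTF libraries, 85.2% to 88.6% of their low values were whole reads within 0.03 read. The depths of the U2OS-PcTF pair came instead from the 2 lowest steps of the derived values (34 and 18 values), and this share was not computed for them. Python 3.11.15, numpy 2.4.6, pandas 2.3.3, scipy 1.17.1 and matplotlib 3.10.9 were used, and the length step and counts were tested on simulated data.

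Named genes were CBX8, the study's panel and controls, the 15 highest and 15 lowest differences among genes at 5 FPKM or more on the higher side (small RNAs and loci under 300 bp left out), in each list up to 6 members by size of difference, and members of the same complex or pathway step. Members and lists were chosen with earlier results of these data known. Libraries of the other cell lines were left out because they take no part in the comparison. In bulk RNA, fewer cells of a type and less RNA per cell cannot be told apart. Some genes of these lists are not reported here by name.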

Additional observations from a re-analysis of the deposited data

How the results depend on the processing

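The count of genes 2-fold higher in U2OS-PcTF (4779) was 7213 with no filter on low values, 2888 with 5 FPKM on either side, 2809 with 1 FPKM on both sides, 2887 centred on the median and 2514 centred on genes of like length. The count of lower genes (1743) was 2971 centred on the median and 997 with the mock-transfected library as control. The median difference (0.58) was 0.50 with 1 FPKM added, 0.31 with no filter, 0.48 with 5 FPKM on either side, 0.39 with 1 FPKM on both sides, 0.52 with the deposited mean of 3 libraries, 0.41 against mock-transfected cells and 0 by construction when centred on the median. The other 18 of these 32 values stayed within their limits, as did 532 of 748 list counts and 1257 of 1374 values of named genes. Length-centring and 1 FPKM on both sides were chosen after the data were seen.

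With the deposited mean of 3 libraries, IFI6 (1.25) and HBE1 (0.53) took the opposite sign, since the transfected library is then part of the mean. Against mock-transfected cells, 26 named genes lower than in U2OS-dTF were higher in U2OS-PcTF on the log2 scale: BAX 1.91, BIRC5 1.11, CD9 1.28, CDKN1A 1.33, COX7C 0.63, DDB1 0.50, EED 0.99, FAU 0.89, FBXO10 1.53, GDF15 0.81, HOXC11 0.39, HOXC9 1.81, ITGB2 2.41, MED8 0.16, MFAP5 4.46, NDUFB7 1.15, NFKBIA 1.42, PAGE2 8.40, PCGF6 0.46, PSMB10 0.67, RPL38 0.48, RPS14 0.77, SESN2 1.42, TIMP2 1.49, UQCRQ 0.51, WDR5 1.46. Another 31 that were higher than in U2OS-dTF were lower: BAMBI -1.32, CADM1 -0.46, CDC25C -0.23, CDH11 -0.34, CMPK2 -1.42, COL3A1 -7.11, COL6A3 -0.58, DDX60 -2.44, ERAP2 -0.15, FBN1 -1.41, HAS3 -0.14, HIST1H3E -0.68, HOXA13 -2.83, IFI27 -3.22, IFI44 -2.38, IFIT2 -0.85, IRF8 -0.23, ISG20 -0.44, ITGB8 -0.13, KDM6A -0.23, LGR4 -2.11, MMP9 -0.00300, MUC15 -2.14, P4HA1 -1.89, PLXDC2 -0.82, PRRX1 -1.03, SLITRK6 -0.0671, SOSTDC1 -3.34, SOX5 -0.42, TRIM22 -0.31, ZNF844 -0.25. The cause was not tested.

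No paired analysis was possible because the labels give U2OS-dTF 1 library and the table gives U2OS-PcTF only as a mean. For the same reason no library was left out in turn. Depth limits the low end, since 0.0960 FPKM in U2OS-dTF rests on 1 read of a transcript of 2000 nucleotides.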
